A study of Mus musculus with 2 samples.

Results

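Tet1, Tet2, Tet3 and Tdg, 4 of the 25663 genes measured, were chosen by name: the 3 TET dioxygenases and the glycosylase that acts after them in active DNA demethylation. Their levels were followed across small intestine epithelial cells of mouse embryos, grouped by the amount of Fabp1, Fabp6 and the cell division transcripts Mki67 and Top2a. The study compared a Control library with a Tet3 knockout library, and its title places Tet3 in terminal differentiation and metabolism. There was 1 library per genotype, each a pool of sorted cells from 2 embryos of strain C57BL6/J, taken at E18.5 and fixed in 90% methanol. The knockout allele lacks exon 5 of Tet3. It was made in embryonic stem cells of a (C57BL6/J x C3H/HeJ)F1 background, where a transiently expressed Cre removed the exon and single clones were picked, and it was carried through chimeras and at least 5 backcross generations. No genotype could be given to any cell. Cell barcodes ended in 1 of 2 suffixes, called set 0 and set 1 here, and no label ties a suffix to a library. The level of Tet3 was not used to do so.

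TET enzymes use iron, oxygen and 2-oxoglutarate to turn 5-methylcytosine in DNA into 5-hydroxymethylcytosine and then into formyl and carboxyl forms. Tdg, thymine DNA glycosylase, cuts out the formyl and carboxyl bases, and base excision repair puts an unmodified cytosine in their place. In the small intestine, stem and progenitor cells in the crypts or, before birth, between the villi divide and give rise to enterocytes and secretory cells. 5-hydroxymethylcytosine is known to build up in genes that are active in mature enterocytes. Fabp1, a liver-type fatty acid binding protein, marks enterocytes, above all of the proximal intestine, and Fabp6, the ileal bile acid binding protein, marks distal enterocytes.

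The exon removed in the knockout is shown because it defines the study's mutation. Annotated transcripts of Tet3 number it differently. The labels place the new stop codon in exon 6. In the 12-exon transcript ENSMUST00000186548, exon 5 has 91 bases (GRCm38, minus strand, chr6:83385985-83386075), and without it the first stop codon in the new frame lies in exon 7. In the 11-exon transcript ENSMUST00000089622, exon 5 has 94 bases (chr6:83379872-83379965), and without it a TGA stop lies in exon 6 (chr6:83376766-83376974), starting at its base 2. Both lengths leave a remainder of 1 when divided by 3, so removal of either changes the reading frame, and only the second numbering matches the labels. The letters are from GENCODE M21 transcripts and read 5′ to 3′, with the new stop codon in capitals at the start of exon 6 (chr6:83376915-83376974).
exon 5 of ENSMUST00000186548: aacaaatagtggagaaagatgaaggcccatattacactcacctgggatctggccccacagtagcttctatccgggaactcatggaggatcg
exon 5 of ENSMUST00000089622: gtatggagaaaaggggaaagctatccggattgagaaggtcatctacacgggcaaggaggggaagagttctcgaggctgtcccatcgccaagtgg
start of exon 6: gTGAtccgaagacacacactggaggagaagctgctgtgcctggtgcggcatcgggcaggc
Transcripts were counted from tags near the 3′ end. Where those tags lie within Tet3 was not known, and a count of Tet3 does not show whether exon 5 was present.

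The 4 genes lie apart in the genome (GRCm38). Tet1 (ENSMUSG00000047146) is on the minus strand at chr10:62804570-62908996, Tet2 (ENSMUSG00000040943) on the minus strand at chr3:133463679-133545139, Tet3 (ENSMUSG00000034832) on the minus strand at chr6:83362373-83459084 and Tdg (ENSMUSG00000034674) on the plus strand at chr10:82629828-82650799. All are protein-coding. A processed pseudogene, Tdg-ps (chr15:82516311-82519278), is a copy of Tdg, and reads that match both cannot be told apart. Of the cells that held Tdg, 82.6% had a whole number of its molecules, against 100% of those with Tet2 or Tet3 and 60.9% of those with Tet1, so Tdg and Tet1 carry uncertain reads. Tet3 overlaps B230319C09Rik on the opposite strand (794 molecules) and 5430434F05Rik on its own strand (472 molecules). Tet3 and both of these genes had whole numbers of molecules in 100% of the cells that held them, so no split of reads between them was seen. Whether reads from the shared stretches were assigned to the wrong gene was not tested.

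The table held 5933 cells in set 0 and 5938 in set 1, beside 6000 cells loaded per library in the labels, and 818 barcodes occurred in both. The entries of a shared barcode had closely related contents (Pearson r of 0.98 for log2 Fabp1 and 0.95 for log2 Fabp6 across these barcodes) at a depth ratio of 3.81, so they were left out of set 1, which left 5120 cells and 11053 in all. Depth was recovered from the values as unique molecular identifiers (UMIs), with a median of 23657 UMIs per cell in set 0 and 22374 in set 1, above the 10000 reads per cell in the labels. Levels below are means over cells of the signal scaled to 10000 per cell, called CP10K. An interval beside a level is the exact Poisson 95% interval of the summed UMIs per 10000 UMIs of the same cells, and covers counting error only. The tissue label was borne out by the epithelial markers Epcam, Cdh1, Krt8 and Krt18, which summed to 29.8 CP10K in set 0 and 28.6 in set 1. The 3 immune markers in the table summed to at most 0.0325 CP10K in any grouping. There were no replicates, so no p-values are given, and cells of a set are not replicates of a condition.

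Tet3 was found throughout the epithelium, at a low level per cell. Its mean was 0.280 CP10K over all cells (8104 UMIs, 0.272 to 0.284), and 45.9% of cells held at least 1 UMI, with at most 18 in a cell. Tet2 averaged 0.170 CP10K (4958 UMIs, 0.165 to 0.175) and was found in 32.7% of cells. Tdg averaged 0.226 CP10K (6510 UMIs, 0.218 to 0.229) and was found in 43.8%. Tet1, the family member best known from embryonic stem cells and germ cells, was nearly absent: 203 UMIs in all gave 0.00763 CP10K, and 256 cells held any of them. Tet1 lay below the mean of 0.05 CP10K that a gene needed for a log2 ratio, and 9054 genes passed that minimum, among them Tet2, Tet3 and Tdg.

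Of the 3 measured members, Tet3 had the widest gap between set 0 and set 1. Tet3 stood at 0.333 CP10K in set 0 (0.320 to 0.338) and 0.218 in set 1 (0.207 to 0.223), a 1.53-fold difference. Tdg stood at 0.231 in set 0 and 0.221 in set 1, and Tet2 at 0.176 and 0.163. On the log2 scale, with 0.01 CP10K added to both levels as in every log2 ratio here, set 0 over set 1 was 0.59 for Tet3 (95% counting interval 0.55 to 0.68), 0.10 for Tet2 (0.03 to 0.19) and 0.06 for Tdg (0.01 to 0.15). A gene is called different here when it lies past 1.5-fold. That held for 1 of the 3 measured members, Tet3, and for 6.26% of all genes tested (3.56% higher and 2.71% lower in set 0). Tet3 was just past that line, and it fell to 0.46 when groups of like cells were weighted equally and to 0.41 in cells with Fabp1 above 100, Fabp6 below 10 and no Mki67 or Top2a, both short of 1.5-fold, where 4.15% and 7.78% of genes lay past it. It was 0.57, also just short, without the 421 cells richest in markers of goblet or other non-enterocyte cells, a comparison added after the data had been seen, in which 6.41% of genes lay past 1.5-fold. Tet3 was short too with shared barcodes left out of both sets (0.57) or kept in set 1 (0.47), and with 0.1 CP10K added (0.44). Leaving out the 5% of cells with most UMIs gave 0.58, just short. So did a total without mitochondrial, ribosomal protein, haemoglobin and Fabp signal. Tet3 stayed past 1.5-fold in cells thinned to 8000 UMIs (0.61), by summed UMIs (0.59), with nothing added (0.61) and under a stricter filter (0.60). There 6.12% to 7.18% of genes lay past it. In the comparisons before these, from the shared barcodes to the total without mitochondrial and other signal, 2.98% to 6.37% did. Tet1 went the other way, at 0.00568 CP10K in set 0 (0.00406 to 0.00632) and 0.00990 in set 1 (0.00775 to 0.0112), from 82.6 and 120.7 UMIs. The sets also differed in makeup, with Fabp6 above 50 in 18.7% of set 0 cells and 0.527% of set 1 cells. Which part of these differences belongs to genotype, to embryos or to library cannot be told apart.

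The same comparison within groups of like cells left Tet3 higher in set 0. Of the 18 possible groups, 7 held at least 50 cells in both sets. Tet3 was higher in set 0 in 7 of 7, by 1.08-fold to 1.71-fold, and the intervals of both sets lay apart in 5. The widest gap was among dividing cells with Fabp1 below 40 and Fabp6 below 10, at 0.341 CP10K in set 0 and 0.1995 in set 1. Tdg was higher in set 0 in 6 of 7 groups and Tet2 in 3 of 7, with 0 groups in which the intervals lay apart for either. The interval of the log2 ratio itself lay above 0 for Tdg in non-dividing cells with Fabp1 below 40 and Fabp6 below 10 (0.07 to 0.45). For Tet2 it did so in non-dividing cells with Fabp1 above 100 and Fabp6 between 10 and 50 (0.02 to 0.80). In the other groups it included 0 for both genes.

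**Figure D1:**
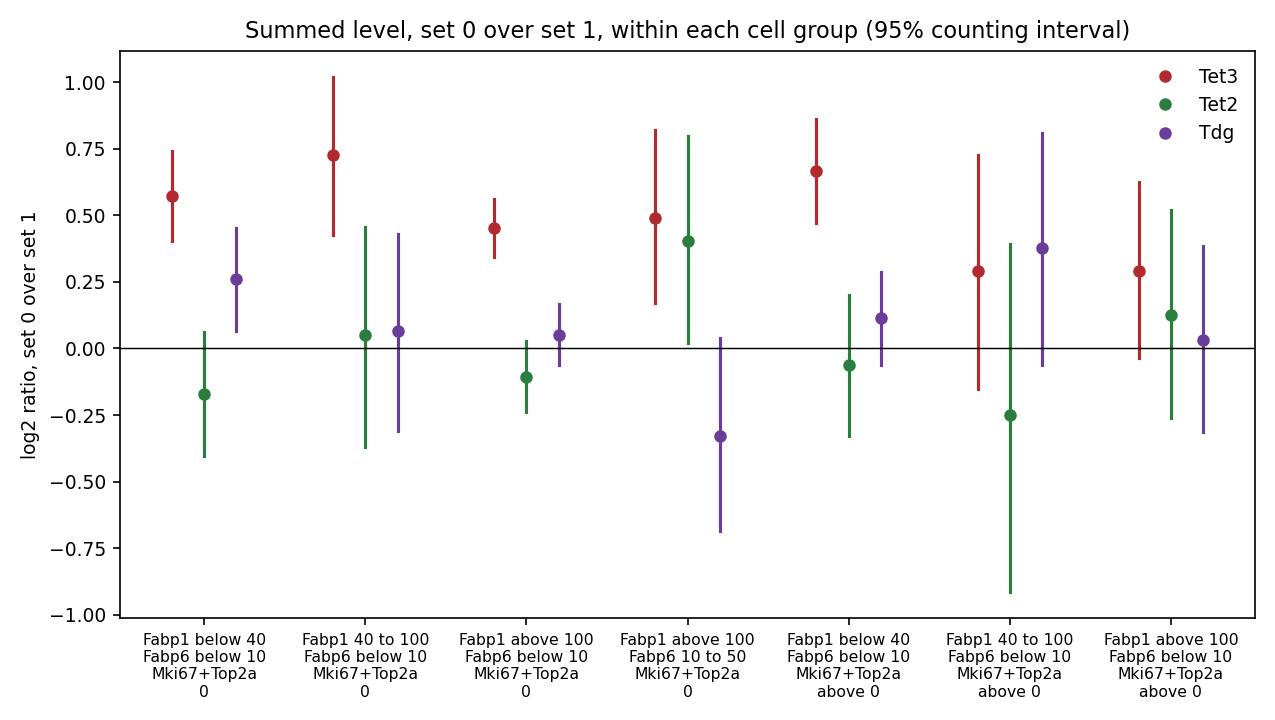
Summed UMIs per 10000 in set 0 over set 1 (log2, vertical axis) for Tet3, Tet2 and Tdg in the 7 groups of cells with 50 or more cells in both sets (horizontal axis, named by CP10K of Fabp1, Fabp6 and Mki67 plus Top2a). Bars are 95% counting intervals, and the Tet3 bars lie above 0 in 5 of 7 groups. The Tdg bar of non-dividing cells low in Fabp1 and Fabp6 also lies above 0, as does the Tet2 bar of non-dividing Fabp1-rich cells with Fabp6 from 10 to 50.

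Thinning every cell to 8000 UMIs gave the same picture in shares of cells. A UMI of Tet3 was found in 22.3% of thinned cells of set 0 (exact binomial 95% interval 21.2 to 23.4) and 15.3% of set 1 (14.3 to 16.3), against 52.4% and 38.6% without thinning. Tdg was found in 15.7% and 15.05% and Tet2 in 13.02% and 11.05%. Cells below that depth were dropped, 36 in set 0 and 45 in set 1. No cell type here is known to lack these genes, so a share due to free RNA was not available, and doublets were not removed.

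Along the enterocyte axis, Tet3 and Tdg were lower in cells rich in Fabp1, and Tet2 changed less. In set 0, Tet3 stood at 0.418 CP10K in cells with Fabp1 below 40 (0.390 to 0.425), 0.394 between 40 and 100 and 0.272 above 100 (0.267 to 0.288). In set 1 the values were 0.249 (0.233 to 0.264), 0.244 and 0.194 (0.181 to 0.201). Cells below 40 were thus above those past 100 in both sets, with intervals apart, and the middle cells of each set lay near the low end of Fabp1.

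Tdg, the glycosylase, went from 0.295 CP10K below 40 to 0.226 and 0.192 in set 0. In set 1 it went from 0.270 to 0.215 and 0.192. The levels of both sets met in cells past 100. For Tet2 the order was 0.189, 0.215 and 0.162 in set 0, and 0.172, 0.159 and 0.158 in set 1.

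The log2 ratio of cells above 100 over cells below 40, averaged over both sets, was -0.54 for Tdg (95% counting interval -0.61 to -0.46), -0.47 for Tet3 (-0.55 to -0.40) and -0.16 for Tet2 (-0.25 to -0.07). The median over all genes tested was -0.19. Of the 3 members 0 lay past 1.5-fold, where 33.7% of all genes did (24.1% lower, 9.59% higher). Tet3 was at -0.60 in set 0 (-0.64 to -0.47) and -0.34 in set 1 (-0.50 to -0.26). The drop was thus larger by value in the set with more Tet3, with overlapping intervals. Among cells with no Mki67 or Top2a and with Fabp6 below 10, the ratio of Tet3 was -0.63, past 1.5-fold, as were 31.7% of genes in that comparison. That of Tdg was -0.65 when mitochondrial, ribosomal protein, haemoglobin, Fabp1 and Fabp6 signal was left out of the total, a scaling that moved the median of all genes to -0.29 and put 38.1% past 1.5-fold. Tet1 fell from 0.00915 to 0.00298 CP10K in set 0 and from 0.0159 to 0.00582 in set 1, with intervals apart in both.

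Cells low in Fabp1 are not all progenitors, and in set 0 many were rich in Fabp6. Among non-dividing ones there, 257 had Fabp6 between 10 and 50 (Tet3 at 0.549 CP10K), 446 above 50 (0.445) and 641 below 10 (0.424). Set 1 had 35 such cells between 10 and 50 and 1061 below 10. With Fabp6 below 10 and no Mki67 or Top2a, the Tet3 ratio along Fabp1 was -0.73 in set 0 and -0.54 in set 1. The 7 goblet markers summed to 8.82 CP10K below 40 and 0.963 above 100 in set 0 (6.60 and 0.475 in set 1), and the 7 enteroendocrine markers to 2.67 and 0.113 (3.97 and 0.111 in set 1). Mesenchymal markers in set 1 summed to 0.430 below 40 and 0.0192 above 100. Leaving out the 421 cells richest in goblet or other non-enterocyte markers kept the ratios of all 3 members within their counting intervals. The 12 proliferating markers summed to 10.3 and 1.601 CP10K in set 0 and 12.5 and 1.805 in set 1.

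In finer steps the decline of Tet3 came late along Fabp1. Cells with Fabp6 below 10 were split in each set into 10 bins of equal size by Fabp1. In set 0, Tet3 was between 0.336 and 0.396 CP10K in the first 5 bins, up to a median Fabp1 of 188 CP10K, and between 0.191 and 0.265 in the last 5. In set 1 it was between 0.223 and 0.266 in the first 6 bins and between 0.166 and 0.196 in the last 4. Tdg went from 0.342 in the lowest bin to 0.167 in the highest in set 0 and from 0.248 to 0.162 in set 1. The share of cells with Mki67 or Top2a fell over the same bins from 60.3% to 2.93% in set 0 and from 42.3% to 2.88% in set 1, and its part in the decline was tested only by the comparison among non-dividing cells given above.

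**Figure D2:**
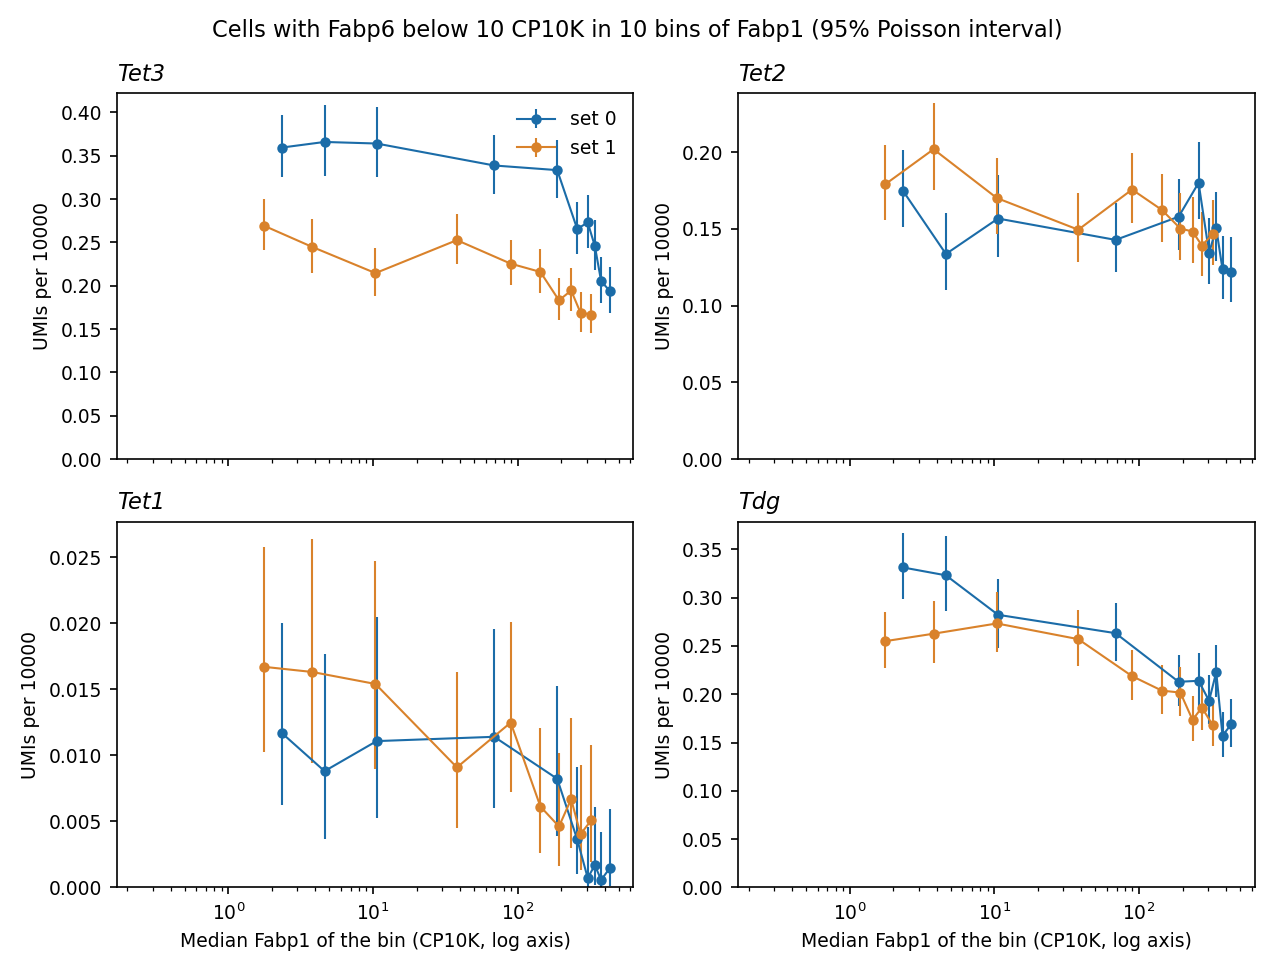
Summed UMIs per 10000 of each gene (vertical axes) against the median Fabp1 of the bin (CP10K, log axis), for cells with Fabp6 below 10 in 10 bins of equal size per set; bars are 95% Poisson intervals. Tet3 and Tdg were lowest in the bins richest in Fabp1, and the Tet3 curve of set 0 lay above that of set 1.

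Tet2 was the member past 1.5-fold between cells rich and poor in Fabp6. In set 0, its level was 0.149 CP10K in cells with Fabp6 below 10 (0.141 to 0.155), 0.221 between 10 and 50 (0.206 to 0.247) and 0.245 above 50 (0.226 to 0.261). Tet3 was at 0.300, 0.429 and 0.395 in the same cells, and Tdg at 0.238, 0.221 and 0.211. Both TET genes were thus higher in cells with Fabp6 than in those without, and the Tdg intervals of cells below 10 (0.224 to 0.242) and above 50 (0.201 to 0.234) overlapped.

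Markers of other cells moved across the same ranges. In set 0 the 5 erythroid markers summed to 0.0768, 0.643 and 0.217 CP10K, the enteroendocrine markers to 1.42, 0.124 and 0.238, the goblet markers to 4.38, 2.58 and 2.32 and the proliferating markers to 6.16, 2.30 and 1.59. Their part in the result was not tested, apart from the comparison without goblet and other-type cells, which gave 1.08 for Tet2. In that comparison, cells were not left out by erythroid or proliferating markers.

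Set 0 held 1108 cells above 50 and set 1 held 27, so the set 1 value is imprecise. Those 27 cells had 22 UMIs of Tet2 (0.214 to 0.518), and a mean of 0.445 CP10K against 0.160 in the 4863 cells below 10.

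The log2 ratio of cells above 50 over cells below 10, averaged over both sets, was 1.04 for Tet2 (95% counting interval 0.72 to 1.37), 0.46 for Tet3 (0.11 to 0.81) and -0.33 for Tdg (-0.83 to 0.18). Tet2 was past 1.5-fold, as were 28.1% of all genes (9.9% higher, 18.2% lower). Set 0 alone gave 0.67 for Tet2, again past 1.5-fold, as were 23.3% of genes (10.8% higher), and 0.39 for Tet3 and -0.17 for Tdg. With thresholds of 5 and 100 the mean over both sets turned to -1.67 for Tet2, where 3 cells of set 1 lay above 100, held 0 UMIs of it and gave a ratio set by the added 0.01 CP10K, while set 0 alone (655 such cells) gave 0.74.

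The difference was also present among Fabp1-rich, non-dividing cells alone. In set 0 cells with Fabp1 above 100 and no Mki67 or Top2a, Tet2 stood at 0.141 CP10K with Fabp6 below 10 (2362 cells, 0.131 to 0.149), 0.224 between 10 and 50 (329 cells, 0.193 to 0.252) and 0.217 above 50 (423 cells, 0.197 to 0.250). Tet3 in these cells stood at 0.252 (0.239 to 0.264), 0.319 (0.291 to 0.361) and 0.339 (0.334 to 0.401). Cells with any of the higher amounts of Fabp6 lay above those below 10 for both genes, and the 2 ranges of Fabp6 above 10 overlapped. Averaged over both sets, the log2 ratios above 50 over below 10 within these cells were 1.00 for Tet2, 0.60 for Tet3, here past 1.5-fold as were 19% of genes, and -0.16 for Tdg, with 24 cells of set 1 above 50. Set 0 alone gave 0.583 for Tet2, just short of 1.5-fold, 0.41 for Tet3, also short, and 0.08 for Tdg. Both means thus passed that line only through the 24 cells of set 1, which gave 1.41 for Tet2 and 0.78 for Tet3. In set 1 the 158 cells between 10 and 50 had 0.171 CP10K of Tet2 against 0.153, with overlapping intervals, and 0.241 of Tet3 (0.189 to 0.280) against 0.188 (0.173 to 0.195), which overlapped as well.

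**Figure D3:**
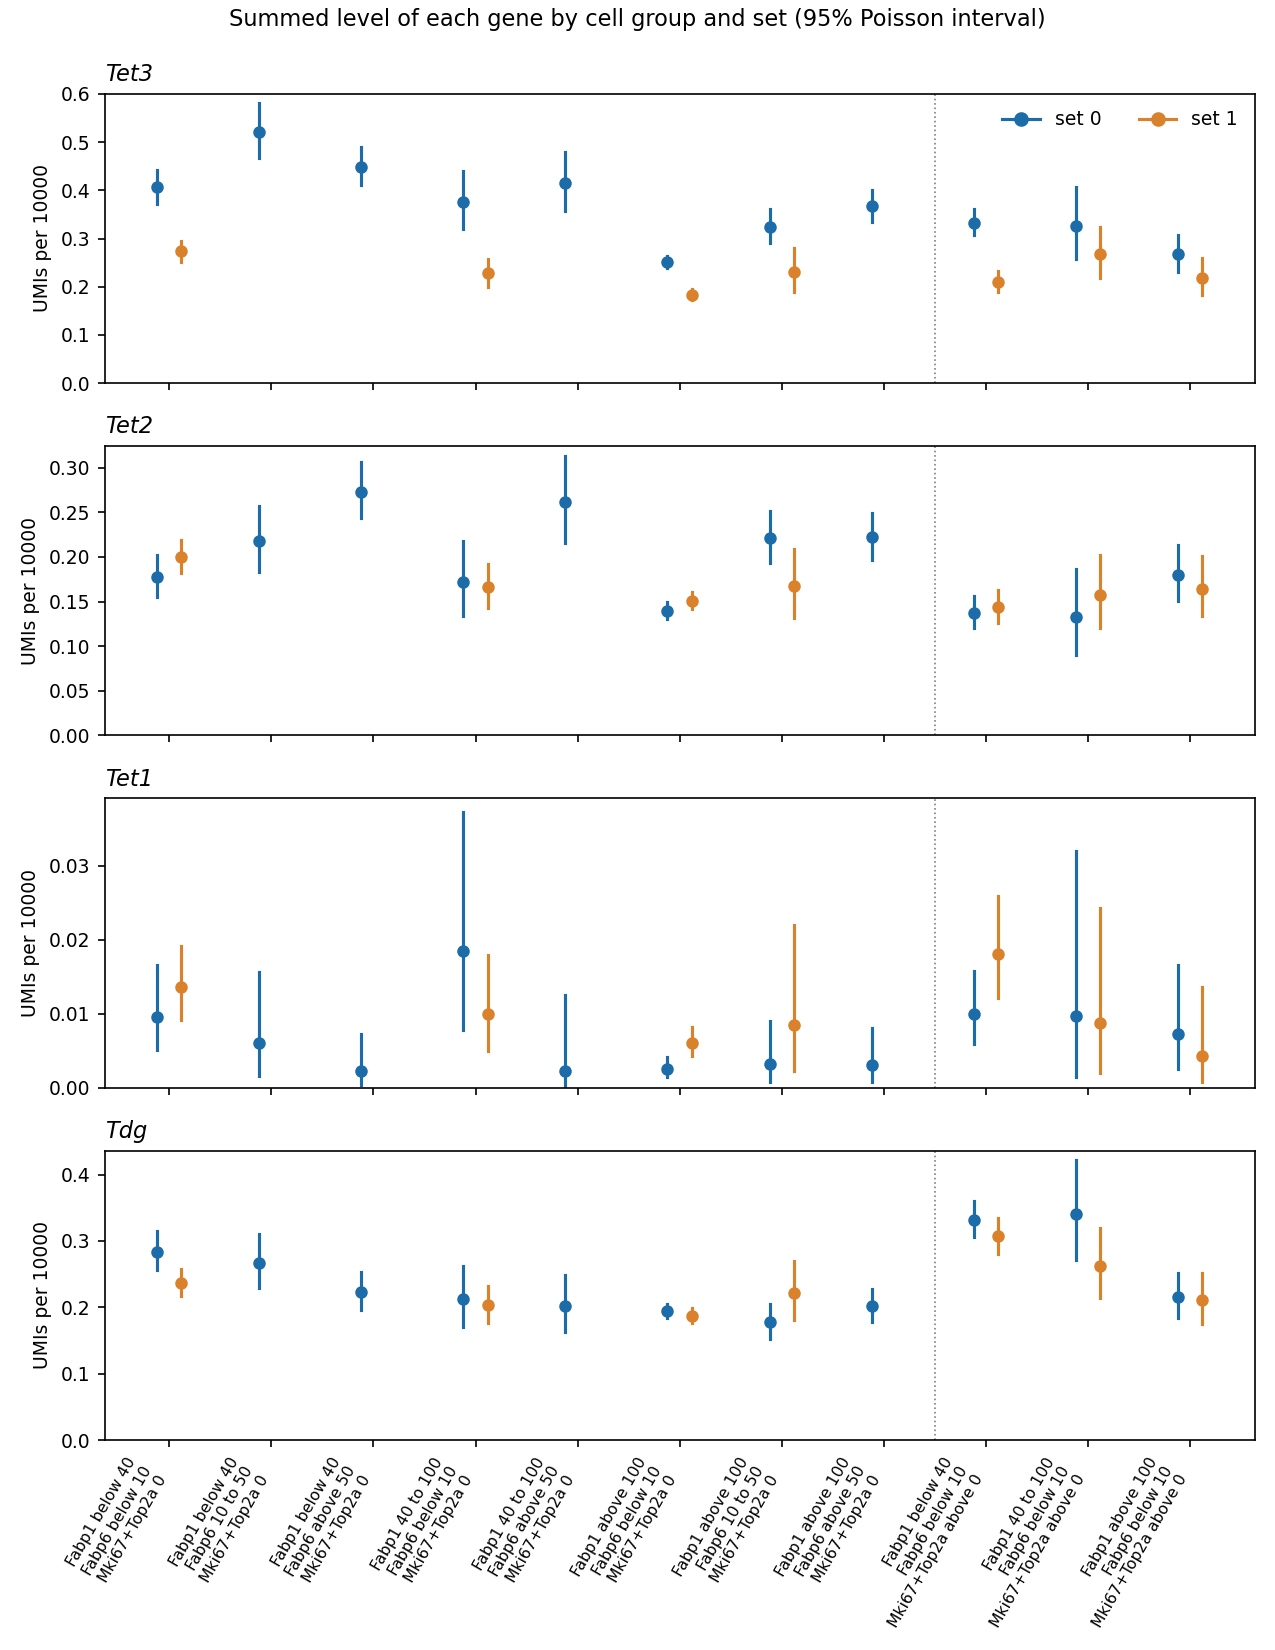
Summed UMIs per 10000 of each gene (vertical axes, from 0) in every group of 50 or more cells (horizontal axis, CP10K of Fabp1, Fabp6 and Mki67 plus Top2a), with 95% Poisson intervals; set 0 has 11 such groups and set 1 has 7. In set 0, Tet3 is highest in cells low in Fabp1 without division transcripts and Tet2 in cells with Fabp6 above 50; in both sets the highest Tdg is among dividing cells, to the right of the dotted line.

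Over all cells, dividing cells had more Tdg. Where Mki67 or Top2a was present, Tdg stood at 0.306 CP10K in set 0 (0.280 to 0.318) and 0.282 in set 1 (0.257 to 0.297), against 0.214 (0.203 to 0.219) and 0.207 (0.193 to 0.210) in cells with 0. Tet2 over all cells was lower in dividing cells, at 0.149 against 0.182 in set 0 and 0.145 against 0.167 in set 1. Among cells with Fabp1 above 100 and Fabp6 below 10 it was higher in dividing cells. In set 0 it stood there at 0.174 CP10K (0.150 to 0.213) against 0.141 (0.131 to 0.149), with intervals apart. In set 1 it stood at 0.167 (0.134 to 0.201) against 0.153 (0.141 to 0.161), with overlapping intervals. Any UMI of Mki67 or Top2a made a cell count as dividing, and these dividing cells were deeper. Their median was 32876 UMIs against 25004 in set 0 and 29571 against 23633 in set 1. The part of depth or doublets in this difference was not tested. Tet3 over all cells was level, at 0.333 in both kinds of cell in set 0 and 0.208 against 0.221 in set 1. Tdg differed little among cells with Fabp1 above 100 and Fabp6 below 10. In set 0 it stood at 0.209 (0.183 to 0.252) in dividing cells against 0.192 (0.184 to 0.205). In set 1 it stood at 0.199 (0.176 to 0.251) against 0.190 (0.177 to 0.199), and intervals overlapped in both sets.

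The log2 ratio of dividing over other cells was 0.46 for Tdg (95% counting interval 0.38 to 0.54), -0.24 for Tet2 (-0.34 to -0.13) and -0.04 for Tet3 (-0.12 to 0.04). Of these 0 of 3 lay past 1.5-fold, and 31.7% of all genes did (18.2% higher, 13.5% lower). Tdg passed that line in cells thinned to 8000 UMIs, at 0.60, where 39.3% of genes did. The sign for Tet3 turned to 0.05 when mitochondrial, ribosomal protein, haemoglobin and Fabp signal was left out of the total, which moved the median of all genes from 0.04 to 0.14. Markers of other cells also differed. In set 1, 5 of 5 mesenchymal markers were present at a sum of 0.719 CP10K in dividing cells against 0.0295. In set 0 the sums in dividing and other cells were 0.0466 and 0.00142 for endothelial, 0.0325 and 0.000617 for immune and 0.0519 and 0.00427 for neural markers. Goblet markers summed to 6.31 against 3.20 in set 0 and 5.26 against 1.98 in set 1, and enteroendocrine markers to 0.114 against 1.25 and 0.232 against 1.87. Their part in the result was not tested beyond leaving out the cells richest in goblet, enteroendocrine, mesenchymal, endothelial or neural markers. Cells were not left out by immune markers.

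**Figure D4:**
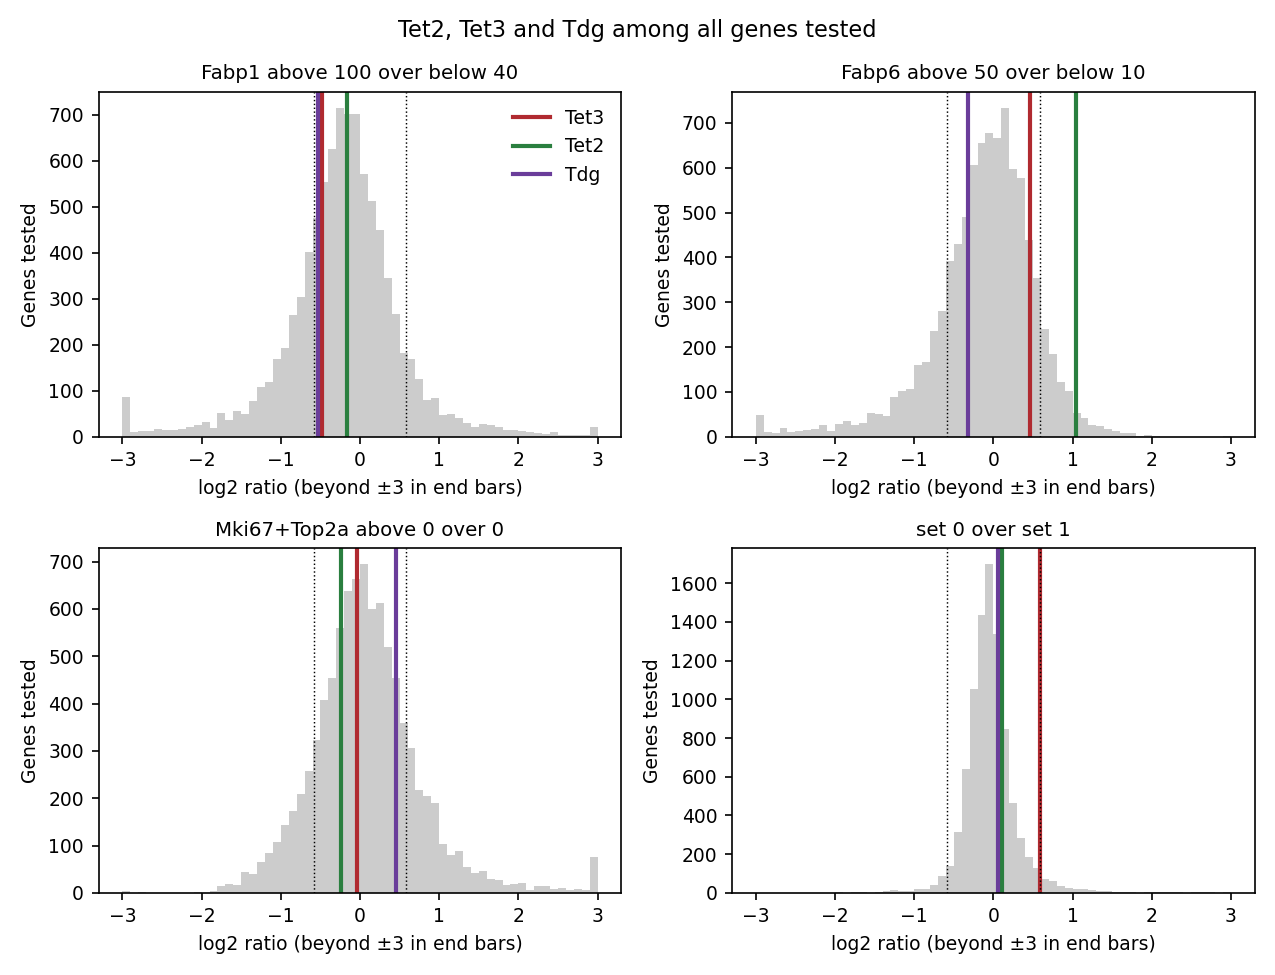
Number of genes (vertical axes) by log2 ratio (horizontal axes) over the 9054 genes tested in each of the 4 comparisons, with the values of Tet3, Tet2 and Tdg as coloured lines and 1.5-fold as dotted lines; the first 3 panels are means of both sets. Tet2 lies past 1.5-fold in the Fabp6 panel and Tet3 just past it in the set panel.

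Among cells with Fabp1 below 40 and Fabp6 below 10, Tet2 and Tet3 stood lower in dividing than in non-dividing cells. In these cells, Tet3 stood at 0.424 CP10K in non-dividing cells of set 0 (641 cells, 0.372 to 0.442) and 0.341 in dividing ones (678 cells, 0.307 to 0.361). In set 1 it stood at 0.278 (1061 cells, 0.252 to 0.295) and 0.1995 (668 cells, 0.188 to 0.233). Tet2 stood at 0.190 and 0.130 in set 0 and at 0.195 and 0.134 in set 1. Tdg was higher in the dividing cells, 0.340 against 0.306 in set 0 and 0.306 against 0.250 in set 1. The intervals of non-dividing and dividing cells lay apart for Tet3 in both sets and for Tet2 and Tdg in set 1.

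These values gave mean log2 ratios of -0.38 for Tet3, -0.51 for Tet2 and 0.22 for Tdg, where the median of all genes was -0.05 and 24.7% of genes lay past 1.5-fold. Among dividing cells, those whose summed G2/M markers exceeded their S-phase markers had 0.331 CP10K of Tdg in set 0 (0.296 to 0.348) and 0.310 in set 1 (0.277 to 0.335), and those with more S-phase markers 0.283 (0.250 to 0.306) and 0.239 (0.211 to 0.269). The intervals lay apart in set 1 only, and this split was chosen after the data had been seen.

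Over the single groups of 50 or more cells, the order of levels had no sharp steps. For each of the 4 genes, all neighbours in the order overlapped in their intervals, 10 of 10 pairs in set 0 and 6 of 6 in set 1. The ends of the order were apart for the 3 measured members. Tet3 in set 0 ran from 0.549 CP10K in non-dividing cells with Fabp1 below 40 and Fabp6 between 10 and 50 to 0.2496 in dividing cells with Fabp1 above 100 and Fabp6 below 10, a 2.20-fold range. In set 1, where the first of these groups held under 50 cells, it ran from 0.278 to 0.188, 1.48-fold. Tet2 ran over 2.28-fold in set 0 and 1.46-fold in set 1, and Tdg over 2.03-fold and 1.61-fold.

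Smaller ranges of cells differed in the balance of these genes. Olfm4 marks intestinal stem cells, and the cells with at least 5 CP10K of it (74 in set 0, 19 in set 1) had 0.381 and 0.383 CP10K of Tdg, against 0.223 (0.214 to 0.229) and 0.220 (0.208 to 0.224) in cells with 0, with intervals apart in set 0 (0.297 to 0.486) and overlapping in set 1 (0.177 to 0.556). Of the 74 cells, 56 were dividing with Fabp1 below 40 and Fabp6 below 10, and among such cells Tdg was not higher with Olfm4, at 0.323 CP10K (0.265 to 0.465) against 0.366 (0.310 to 0.384) in set 0 and 0.290 against 0.313 in set 1. Among non-dividing cells of the same Fabp1 and Fabp6 ranges, Tdg was higher with Olfm4, though in few cells. It stood at 0.561 (17 cells, 0.278 to 0.872) against 0.276 (0.232 to 0.292) in set 0. In set 1 it stood at 0.544 (7 cells, 0.141 to 1.02) against 0.249 (0.217 to 0.258), and intervals overlapped in both sets. Tet3 over all cells with Olfm4 was 0.225 (0.139 to 0.277) and 0.145 (0.0535 to 0.318), against 0.335 (0.322 to 0.340) and 0.219 (0.207 to 0.223), with intervals apart in set 0 only. Among the dividing cells just named it was 0.244 (0.138 to 0.293) against 0.373 (0.331 to 0.407) in set 0, and 0.137 against 0.201 with overlapping intervals in set 1. Tet1 had 0 UMIs in the 74 cells of set 0, which allows up to 0.0171 UMIs per 10000. In the 2% of cells of each set richest in goblet markers (119 and 102 cells), Tet3 stood at 0.445 CP10K (0.350 to 0.498) in set 0 against 0.331 (0.318 to 0.336) in the rest, and at 0.255 against 0.218 in set 1, where the intervals overlapped. These are ranges of a score and not cell types.

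Within single cells, Tet2 was somewhat more frequent where Tet3 was found, with intervals apart in set 0 over all cells. In thinned cells of set 0, Tet2 was found in 15.4% of cells with Tet3 (13.5 to 17.5) and 12.3% of those without (11.4 to 13.3), and in set 1 in 12.3% (10.03 to 14.8) and 10.8% (9.92 to 11.8). Among cells of set 0 with Fabp1 above 100 and Fabp6 below 10, the Tet2 shares were 13.6% (10.6 to 17.1) and 10.6% (9.36 to 12.05), with overlapping intervals. Tdg was found in 16.96% and 15.4% of cells with and without Tet3 in set 0, and in 14.8% and 15.1% in set 1. Among cells of set 0 with Fabp1 below 40 and Fabp6 below 10, the Tet2 shares with and without Tet3 were 13.3% (9.80 to 17.5) and 10.3% (8.48 to 12.4). In set 1 they were 11.5% and 12.1% there, and 11.5% and 9.90% with Fabp1 above 100 and Fabp6 below 10. Within these ranges, which hold fewer cells, the intervals of the Tet2 share overlapped in both sets.

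Base excision repair genes, which complete the step that Tdg begins, were mostly lower in Fabp1-rich cells and higher in dividing cells, the same direction as Tdg. Of 19 named, 13 were measured, Tdg itself among them. In the comparison along Fabp1, 9 were lower past 1.5-fold and 0 higher (median log2 -0.98, against -0.19 over all genes, of which 24.1% were lower). In dividing cells 8 were higher and 0 lower (1.21, against 0.04 and 18.2% of all genes higher). Ung, which removes uracil from DNA, had log2 ratios of -2.87 along Fabp1 and 2.80 in dividing cells, and Lig1, the ligase that seals breaks, 2.27 in dividing cells. Parp1, a sensor of strand breaks, had -2.18 along Fabp1 and -1.67 along Fabp6. Several of these genes also serve DNA replication. Along Fabp6, 8 of 13 were lower and 0 higher (median -0.93, against -0.05 over all genes, of which 18.2% were lower). Xrcc1, a scaffold of this repair, is among the 8 with 0.01 in set 0 and -1.58 in the 27 cells of set 1.

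Of 16 measured DNA methylation writers and readers, 8 were lower and 0 higher along Fabp1, where 24.1% of all genes were lower (list median -0.64, against -0.19). In dividing cells 8 were higher and 1 lower, where 18.2% of all genes were higher and 13.5% lower (0.53, against 0.04). Along Fabp6, 5 were lower and 0 higher, where 18.2% of all genes were lower (-0.38, against -0.05), and of those 5, Mbd3 and Trim28 were short of 1.5-fold in set 0, at -0.38 and -0.45. Uhrf1, which brings Dnmt1 to newly copied DNA, had -3.39 along Fabp1 and 3.35 in dividing cells. The chromatin remodeller Hells had -3.36 and 3.15. Gadd45a, a stress-response gene linked to demethylation, was the lower one in dividing cells, at -0.69. Uhrf1 and Hells were named because they are extremes of this list. Beside the list medians of -0.64 along Fabp1 and 0.53 in dividing cells, Tdg had -0.54 and 0.46, Tet3 -0.47 and -0.04, and Tet2 -0.16 and -0.24.

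Genes that supply the TET enzymes with 2-oxoglutarate, iron or ascorbate gave calls in both directions. Of 23 measured, 3 were higher and 2 lower along Fabp1 (9.59% and 24.1% of all genes), 3 higher and 5 lower along Fabp6 (9.9% and 18.2%), and 2 higher and 5 lower in dividing cells (18.2% and 13.5%). The higher calls along Fabp1 and the lower ones along Fabp6 are near the shares of all genes. Gpt, an alanine aminotransferase that uses or makes 2-oxoglutarate, stood at 0.559 CP10K above 100 of Fabp1 and 0.0839 below 40 in set 0, with a mean log2 ratio of 2.61. Ogdh, which consumes 2-oxoglutarate in the citric acid cycle, had 0.80, and Glud1, glutamate dehydrogenase, -0.92. Psat1, which makes 2-oxoglutarate during serine synthesis, had -2.42 along Fabp1 and 1.76 in dividing cells. Slc23a1, the epithelial ascorbate transporter, was higher with Fabp6, like Tet2: 0.468 CP10K above 50 and 0.158 below 10 in set 0, with a mean ratio of 1.55 over both sets. Phgdh, the first enzyme of serine synthesis, had 0.91 and the mitochondrial isocitrate dehydrogenase Idh2 -0.82 along Fabp6.

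Partner proteins of the TET enzymes and other enzymes of their class came next. Of 12 measured TET partners, 5 were lower and 0 higher along Fabp1 (24.1% and 9.59% of all genes), with a median of -0.33 against -0.19. Along Fabp6, 1 was higher and 1 lower (9.9% and 18.2% of all genes), and in dividing cells 2 were higher and 0 lower (18.2% and 13.5%), no more often than genes at large. The list shares Parp1, with 1.64 in dividing cells, with base excision repair, and it was the lower one along Fabp6. The deacetylase Hdac2 had -1.12 along Fabp1 and 0.84 in dividing cells, and Cxxc5, a CXXC-domain protein that binds Tet2, had 0.81 along Fabp6. Of 21 other 2-oxoglutarate dioxygenases, 1 was higher and 5 lower along Fabp1, 2 higher and 2 lower along Fabp6, and 3 higher and 1 lower in dividing cells. These counts are near or below the shares of all genes just given, and along Fabp6 the calls of Kdm2a, Kdm2b and Alkbh1 were short of 1.5-fold in set 0. Riox2, a ribosomal histidine hydroxylase, had -0.92 along Fabp1 and 0.75 in dividing cells, its relative Riox1 0.84 in dividing cells, the demethylase Alkbh1 -0.85 along Fabp1, and the asparagine hydroxylase Hif1an 0.78 along Fabp6. Between set 0 and set 1, 0 of the measured genes of 4 lists lay past 1.5-fold, and of the supply list 2 of 23 were lower in set 0, beside 6.26% of all genes past it and 2.71% lower.

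**Figure D5:**
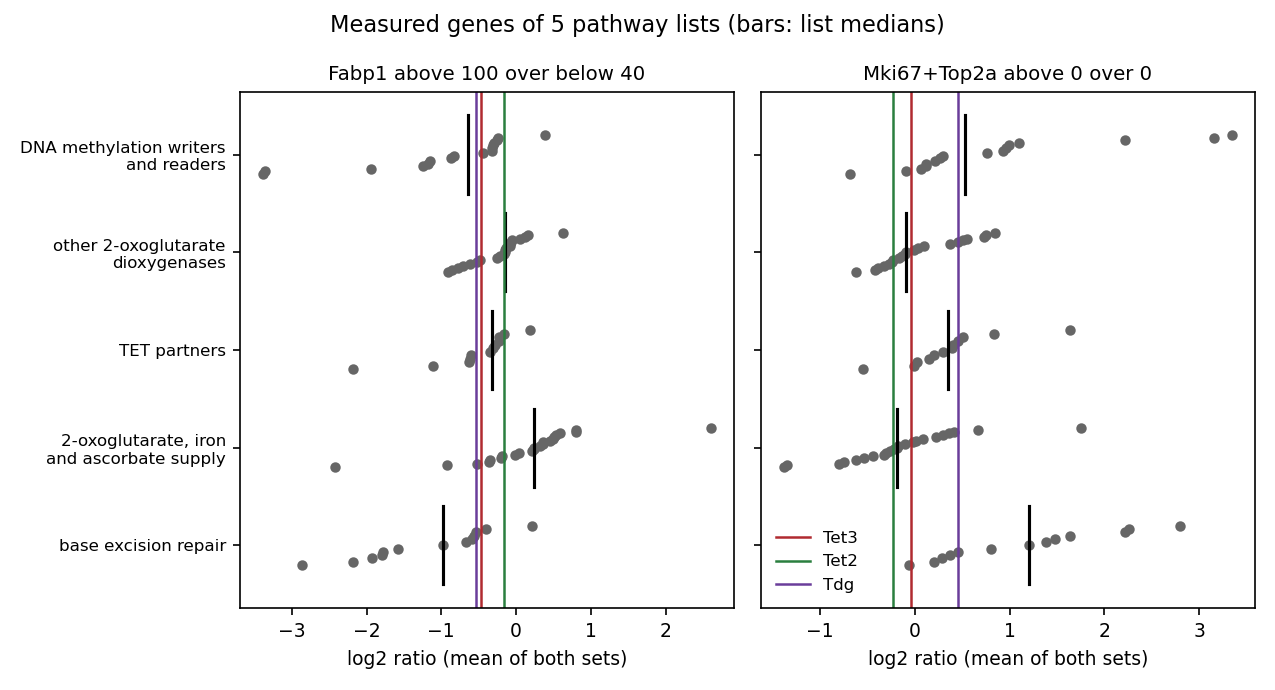
Log2 ratios (horizontal axes, means of both sets) of the measured genes of 5 lists (rows, 1 point per gene, black bars at list medians) along Fabp1 and in dividing cells, with Tet3, Tet2 and Tdg as coloured lines. The extremes of the base excision repair and DNA methylation lists reach further to the left along Fabp1 and further to the right in dividing cells than the 3 members.

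The genes most like each member over the 18 groups of 50 or more cells (11 of set 0 and 7 of set 1) differed from member to member. By Pearson correlation of log2 levels among 5057 genes, Tet2 was followed by Nucb1 (r = 0.94), Hs1bp3 (0.94), Npc2 (0.94), Med25 (0.94) and Tmigd1 (0.93). Npc2, a lysosomal cholesterol carrier, stood at 7.52 CP10K above 50 of Fabp6 and 4.37 below 10 in set 0, and at 4.76 and 4.73 in set 1. Tet3 was followed by Nudt22 (0.89), 2210016L21Rik (0.89), Rnf10 (0.89), Cotl1 (0.88) and Bcl2l15 (0.87), of which Nudt22 stood at 0.619 CP10K in set 0 and 0.375 in set 1. Tdg was followed by Med19 (0.95), a Mediator subunit, Zranb2 (0.94), Thap12 (0.93), Rnps1 (0.92) and Rps19bp1 (0.92), and Med19 stood at 0.721 CP10K in dividing cells of set 0 and 0.539 in the others. Between members, r was 0.59 for Tet2 with Tet3, 0.20 for Tet3 with Tdg and -0.46 for Tet2 with Tdg. The points share 2 libraries and their depth, and with a minimum of 20 cells per group 1, 3 and 0 of the 5 names were found again for Tet2, Tet3 and Tdg.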

How the data were processed

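Single-cell libraries were made with 10x 3′ chemistry, per the labels' protocols. Tools listed in the submitters' processing notes are alevin, Scanpy 1.6.0 and Salmon 0.14.1, with the builds GRCm38 and mm10. The deposited table holds a linear signal per gene and cell, scaled by the authors to a total of 10000 per cell. How cells were filtered is not given in the sources used here, and doublets were not removed here.

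UMIs were recovered by dividing each cell's values by its most frequent value above 0 (a median of 94.9% of values came out whole within 0.01), giving 1153 to 250630 UMIs per cell. Groups followed Fabp1 (40, 100), Fabp6 (10, 50) and Mki67 plus Top2a (0). Log2 ratios were taken of mean levels plus 0.01 over 9054 genes with a mean of at least 0.05 CP10K, and read against 1.5-fold. Their counting intervals came from summed UMIs and not from those mean levels. For a mean of both sets, the widths of the 2 intervals were combined and centred on the mean ratio. By summed UMIs, the mean ratio of Tet2 along Fabp6 was 0.86, against 1.04 by mean levels. The code for the log2 ratios was tested on simulated counts in the comparison along Fabp1, and the other steps were not. Named genes were the members, up to the 2 highest and 2 lowest of each list in the Fabp1, Fabp6 and division comparisons if past 1.5-fold in both sets, and the 5 genes most alike to each member. Members and lists were chosen with earlier results of these data known. Python 3.11.15, NumPy 2.4.6, SciPy 1.17.1, pandas 2.3.3 and Matplotlib 3.10.9 were used, with GENCODE M21.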

Additional observations from a re-analysis of the deposited data

Results flagged for a closer look

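Tdg-ps, a processed pseudogene of Tdg that enters none of the comparisons, gave signal above the limit that a count of 0 allows. Its mean was 0.0144 CP10K over all cells (370.8 recovered UMIs in 718 cells, against a limit of 0.000103 for 3 counts), at 0.0143 in set 0 and 0.0144 in set 1. Of the cells holding it, 99.3% also held Tdg, and 7.52% of them held a whole number of its molecules. With Tdg and Tdg-ps summed, the log2 ratios were -0.52 along Fabp1, -0.33 along Fabp6, 0.44 in dividing cells and 0.05 between sets.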

How the results depend on the processing

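No paired analysis was possible because the labels give both groups replicate 1 and no cell can be tied to a library. Of 151 alternative values of the 12 ratios, 145 kept their sign. By size, 119 stayed within the counting error, 31 moved beyond it, and 1 that had been past 1.5-fold turned its direction. The cause of each move was not tested. Along Fabp1, thinning gave -0.46 for Tdg and -0.40 for Tet3, a pseudocount of 0.1 gave -0.39 and -0.36, the reduced total gave -0.65 and -0.56, wider thresholds gave -0.58 for Tet3 and -0.29 for Tet2, and non-dividing cells with Fabp6 below 10 gave -0.63 and -0.37. Along Fabp6, thresholds of 5 and 100 gave 0.18 for Tdg, 0.97 for Tet3 and the reversed -1.67 for Tet2, which rests on 3 cells of set 1. For Tet2 thinning gave 0.62, shared barcodes kept in set 1 0.70 and set 0 alone, added after seeing the data, 0.67. In dividing cells, Tdg was at 0.54 with at least 2 UMIs of Mki67 plus Top2a, 0.60 thinned, 0.34 with a pseudocount of 0.1, 0.56 with the reduced total and 0.22 within low Fabp1 and Fabp6. Tet2 was at -0.35 with at least 2 UMIs, -0.41 thinned and -0.51 within those cells, and Tet3 at 0.048 with the reduced total and -0.38 within them. Between sets, equal weight per group gave 0.46 for Tet3 and 0.012 for Tet2, the Fabp1-rich non-dividing group alone, added after seeing the data, 0.41 and -0.10, and for Tet3 a pseudocount of 0.1 gave 0.44 and shared barcodes kept 0.47. With a pseudocount of 0.1, counts of genes past 1.5-fold went from 3050 to 1891 along Fabp1, 2545 to 1307 along Fabp6, 2868 to 1752 in dividing cells and 567 to 270 between sets. They were 6376 along Fabp6 with thresholds of 5 and 100, and 376 between sets with equal weight per group. Tet1, with 203 UMIs in all, is limited by depth.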
